A study of Homo sapiens with 4 samples.

Results

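The genes described here are 9 chemokine and receptor genes of the epithelial response to infection, most of them tied to neutrophil attraction: the ELR CXC chemokine ligands CXCL1, CXCL2, CXCL3, CXCL5, CXCL6 and CXCL8, the CC chemokine CCL20, and the receptors CXCR1 and CXCR2. They were taken by name, as every probe set that the array's annotation assigns to 1 of these symbols and no other. That gave 14 of 41091 probe sets tested and 9 of 19775 genes. CXCL2 and CXCL5 had 3 probe sets each, CXCL8 had 2, and the other 6 genes had 1.

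The cells were AGS, an established line of human gastric epithelial cells, grown in serum-containing medium. The untreated group (2 arrays) received fresh medium. The LPS group (2 arrays) received medium with 10 µg/ml lipopolysaccharide of Helicobacter pylori. RNA of both groups was taken at 8 h and hybridised to Affymetrix arrays. The arrays of each group are numbered 1 and 2. The design text gives 2 experiments, and the labels do not tie a number to one of them. One cell line, dose and time were measured, so the spread given here is between arrays of 1 line.

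ELR CXC chemokines carry a glutamate-leucine-arginine motif ahead of their first cysteines. They bind CXCR1 and CXCR2, G protein-coupled receptors that guide neutrophils along the gradient. CXCL8 and CXCL6 act on both receptors, the others mainly on CXCR2. CCL20 binds CCR6 and attracts immature dendritic cells and some lymphocytes. Epithelial cells make these ligands when NF-kB is activated, and neutrophil infiltration of the gastric mucosa is a hallmark of H. pylori gastritis.

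The 6 ELR ligand genes described here lie on chromosome 4, in the order CXCL8, CXCL6, CXCL1, CXCL5, CXCL3 and CXCL2. PF4V1, PF4 and PPBP lie among them. CCL20, CXCR1 and CXCR2 lie on chromosome 2. The promoter stretches below show the element that the ligands share, because NF-kB is the known inducer of these genes. They come from RefSeq (GRCh38.p14), run 5′ to 3′ on the gene's strand, and have in capitals the letters GGAATTTCC, for CCL20 the match to the NF-kB consensus, and for CXCL8 also the AP-1 match. CXCL1 is at chr4:73869290-73869349 (+), CXCL2 at chr4:74099238-74099297 (-) and CXCL3 at chr4:74038733-74038792 (-). CXCL5 is at chr4:73998733-73998792 (-), CXCL6 at chr4:73836564-73836623 (+), CXCL8 at chr4:73740429-73740512 (+) and CCL20 at chr2:227813738-227813797 (+).
CXCL1: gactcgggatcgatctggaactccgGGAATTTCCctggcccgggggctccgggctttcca
CXCL2: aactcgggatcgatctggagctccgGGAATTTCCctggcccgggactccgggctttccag
CXCL3: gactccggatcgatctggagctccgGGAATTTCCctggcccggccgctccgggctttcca
CXCL5: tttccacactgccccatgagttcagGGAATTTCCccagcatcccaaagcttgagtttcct
CXCL6: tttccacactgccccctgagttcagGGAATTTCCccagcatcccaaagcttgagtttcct
CXCL8: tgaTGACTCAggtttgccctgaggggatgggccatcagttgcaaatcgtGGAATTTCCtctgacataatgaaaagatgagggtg
CCL20: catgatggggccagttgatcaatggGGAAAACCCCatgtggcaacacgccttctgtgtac

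The 9 letters GGAATTTCC were searched on both strands after the promoters had been seen. They were present in 6 of 6 promoters of the ELR ligands described here. Of all 35116 promoters of the same 300 bases, 0.461% held these letters. In CXCL1, CXCL2 and CXCL3 they began 77 to 78 bases before the start, and in CXCL5, CXCL6 and CXCL8 89 to 91 bases before it. The degenerate NF-kB consensus matched in 5 of the 6 (all but CXCL8) and in CCL20, against 5.91% of all promoters. In those 5 it overlaps GGAATTTCC, so the searches count the same site. Among the 9 genes, AP-1 (TGANTCA) matched in CXCL8 alone (7.71% of all promoters) and C/EBP (TTGCNNAA) in CXCL2 alone (10.5%). No searched motif matched in the windows of CXCR1 or CXCR2. Of the other CXC ligand promoters in the table, 2 of 9 held GGAATTTCC (CXCL10 and CXCL11), and of the other CC, C and CX3C ligand promoters 0 of 16. A match is a run of letters and was not measured as a binding site here.

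Some of the ligand promoters are near copies of each other. Over 60 bases aligned on GGAATTTCC without gaps, CXCL5 and CXCL6 shared 98.3% of bases, CXCL1 and CXCL3 93.3%, CXCL1 and CXCL2 80.0%. CXCL8 shared 30.0% to 40.0% with the other 5.

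**Figure D1:**
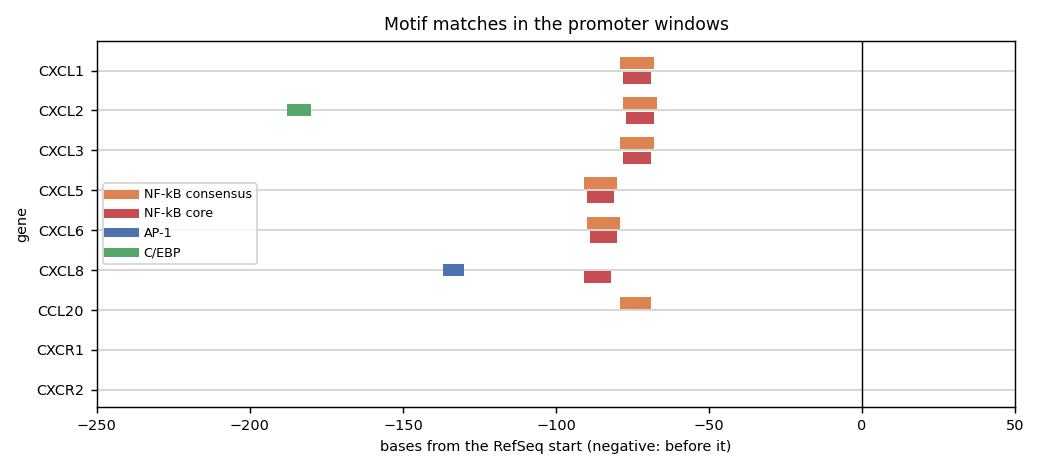
Matches of 4 motifs in the promoter windows of the 9 genes. The horizontal axis is the distance in bases from the RefSeq start, and each coloured bar is a match. The 6 ELR ligands among these genes have an NF-kB core match 77 to 91 bases before the start, and CXCR1 and CXCR2 have no bar.

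Of the 14 probe sets, 0 reached the 0.05 threshold after adjustment over all probe sets (limma, each with an adjusted p of 1). The same test called 0 of all 41091 probe sets, or 0%. At an unadjusted p under 0.05 there was 1 of the 14, a CXCL8 probe set, where the rate over all probe sets was 2.68%. Both LPS arrays lay above both untreated arrays in 2 of the 14 (17.3% of all probe sets) and below them in 1 (12.4%). The median difference over the 14 was 0.018 on the log2 scale, beside 0.014 over all probe sets. In absolute size the median difference was 0.038, beside 0.081 over all. An exact permutation test of 2 arrays against 2 cannot give a p under 0.333.

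Levels are log2 values as deposited. Except for the CXCL8 contrast and means over several probe sets or genes, groups are compared within a probe set. The brightness of a probe set depends on its probes as well as on its transcript, so rankings between probe sets are only descriptions. To say which probe sets were dim, each is given by the share of all tested probe sets that had a lower mean over the 4 arrays. The median over all probe sets was 6.63 in untreated and 6.66 in LPS arrays. Of the 14 probe sets, 5 lay at or above the median, 1 each for CXCL1, CXCL2, CXCL3, CXCL8 and CXCR1. Detection calls were not used here, so a dim probe set may show background and not transcript, and its interval then does not limit a change of the transcript.

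**Figure D2:**
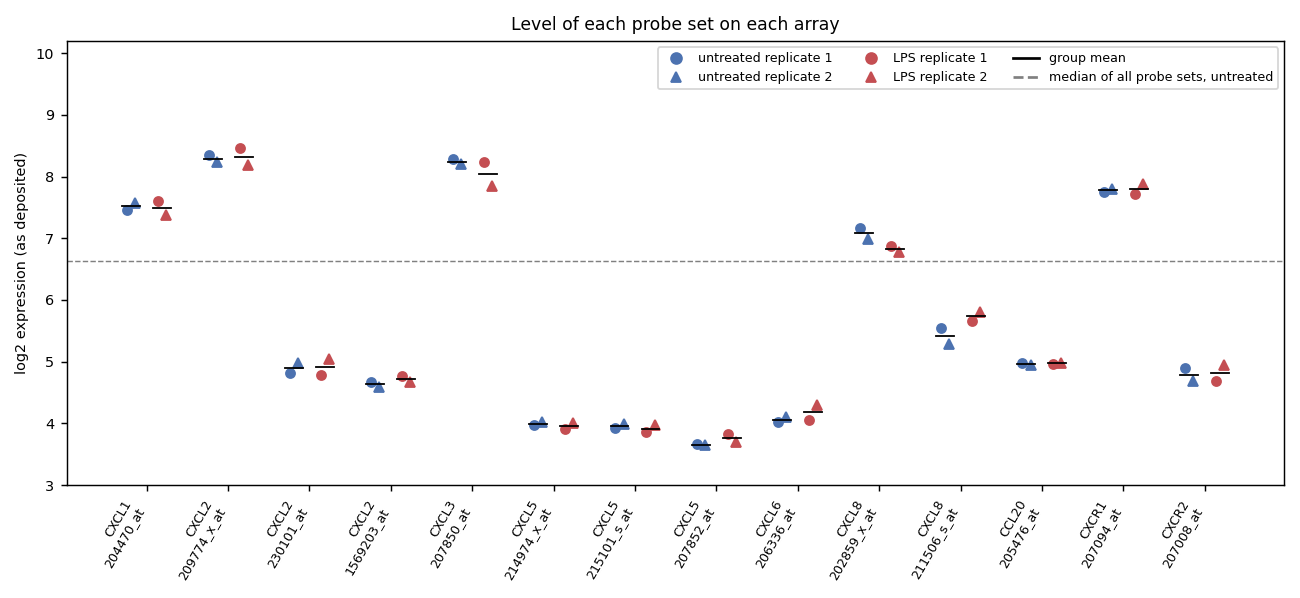
Log2 expression of the 14 probe sets on each of the 4 arrays (vertical axis), with circles for replicate 1, triangles for replicate 2, black bars for group means and a dashed line at the untreated median of all probe sets. Probe sets of CXCL1, CXCL2, CXCL3, CXCL8 and CXCR1 lie above the line, and most groups overlap.

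CXCL1, CXCL2 and CXCL3 are close relatives, known as the GRO chemokines, that act on CXCR2. CXCL1 was at 7.46 and 7.58 in untreated cells and at 7.61 and 7.38 in LPS-treated cells (arrays 1 and 2 in that order, here and below). The LPS arrays held both the highest and the lowest of the 4 values, and 62.9% of probe sets were dimmer. The difference was -0.020 ± 0.13 (SE), a ratio of LPS to untreated of 0.986 with a 95% interval of 0.788 to 1.23 (limma, unadjusted p = 0.886).

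CXCL2 was measured by a bright probe set, 209774_x_at, at 8.35 and 8.23 in untreated and 8.46 and 8.18 in LPS-treated cells. Again the LPS arrays enclosed the untreated ones. The ratio was 1.02 (interval 0.808 to 1.29). Its other probe sets, which do not end in _x_at or _s_at, were dim, with 19.5% and 16.0% of probe sets dimmer. Whether 209774_x_at measures CXCL2 alone was not tested. Probe set 230101_at was at 4.82 and 4.97 in untreated and 4.79 and 5.05 in LPS-treated cells, a difference of 0.017. Probe set 1569203_at was at 4.68 and 4.59 against 4.77 and 4.67, a difference of 0.087. The 3 CXCL2 probe sets thus gave differences of 0.017 to 0.087 with overlapping groups. From array to array 209774_x_at and 1569203_at were both highest on LPS replicate 1 and next highest on untreated replicate 1. Probe set 230101_at had its lowest value on LPS replicate 1 and its highest on LPS replicate 2.

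CXCL3 was at 8.28 and 8.20 in untreated cells and at 8.24 and 7.85 in LPS-treated cells. LPS replicate 2 was 0.29 below the mean of the 4 arrays, and LPS replicate 1 lay between the untreated values. The difference was -0.20 ± 0.16 (SE), a ratio of 0.873 with an interval of 0.670 to 1.14 (limma, unadjusted p = 0.258). One array carried it: without LPS replicate 2 the difference was -0.0005, and without LPS replicate 1 it was -0.39 (limma, unadjusted p = 0.0369, adjusted p = 0.669). With 1 LPS array left, these fits take the spread from the untreated pair and the moderated variance.

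CXCL8, interleukin 8, is a potent attractant of neutrophils. It was measured by 2 probe sets, whose differences had opposite signs. Whether either of them measures CXCL8 alone was not tested. On 202859_x_at, brighter than 55.2% of probe sets, it was at 7.17 and 6.99 in untreated and 6.88 and 6.78 in LPS-treated cells. Both LPS arrays were lower. The means were 7.08 ± 0.13 and 6.83 ± 0.07 (SD, n = 2), a ratio of 0.842 with an interval of 0.681 to 1.04 (limma, unadjusted p = 0.0951).

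On 211506_s_at, brighter than 31.0% of probe sets, CXCL8 was at 5.54 and 5.29 in untreated and 5.66 and 5.81 in LPS-treated cells. Here both LPS arrays were higher. The means were 5.41 ± 0.18 and 5.74 ± 0.10 (SD, n = 2), a ratio of 1.25 with an interval of 1.003 to 1.55 (limma, unadjusted p = 0.0479, adjusted p = 1). The unadjusted p was 0.318 without untreated replicate 2, 0.128 without LPS replicate 2 and 0.0504 when probe sets with no or several gene symbols were tested too. Leaving out an array leaves 1 in its group, which the test then assumes to vary like the other group. Subtracting the brighter from the dimmer probe set on each array gave -1.63 and -1.70 in untreated and -1.22 and -0.97 in LPS-treated cells. That contrast changed by 0.57 between the groups without overlap, with an exact two-sided permutation p of 0.333, the smallest this design allows. The mean of both CXCL8 probe sets differed by 0.036.

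**Figure D3:**
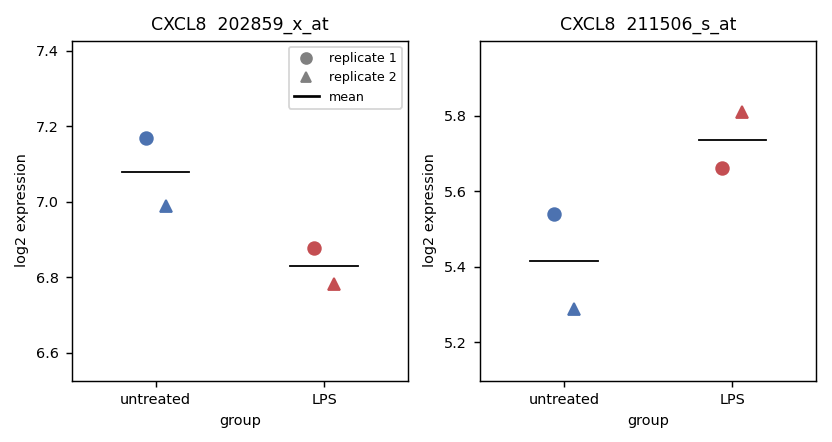
Log2 expression of CXCL8 (vertical axes, of equal span) on its 2 probe sets by group, with circles for replicate 1, triangles for replicate 2 and bars for means. LPS values lie below untreated values on 202859_x_at (6.83 against 7.08) and above them on 211506_s_at (5.74 against 5.41).

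CXCL5 and CXCL6, close relatives of each other, were among the dimmest probe sets of the array. CXCL6 was at 4.02 and 4.11 in untreated and 4.06 and 4.30 in LPS-treated cells, with 7.08% of probe sets dimmer. The groups overlapped, and the difference was 0.12 ± 0.11 (SE), a ratio of 1.08 (interval 0.908 to 1.29). CXCL5 on 214974_x_at was at 3.98 and 4.02 in untreated and 3.91 and 4.01 in LPS-treated cells, and on 215101_s_at at 3.92 and 3.99 against 3.86 and 3.97. Those 2 probe sets had the same order of arrays and differences of -0.037 and -0.039. On 207852_at CXCL5 was at 3.66 and 3.65 in untreated and 3.84 and 3.71 in LPS-treated cells, with 1.60% of probe sets dimmer. There both LPS arrays were higher, by 0.11 ± 0.08 (SE; limma, unadjusted p = 0.191). The CXCL5 probe sets therefore differed in sign, at levels where 5.11% of probe sets or fewer were dimmer.

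CCL20 had the narrowest range over the 4 arrays of the 14 probe sets, 0.04 on the log2 scale. It was at 4.98 and 4.94 in untreated and 4.96 and 4.98 in LPS-treated cells, a difference of 0.0099 ± 0.09 (SE) and a ratio of 1.01 (interval 0.863 to 1.18). Its probe set was dim, with 20.5% of probe sets dimmer. CCR6, the receptor of CCL20, was also dim, at 4.24 and 4.32 against 4.36 and 4.19, a difference of -0.0065.

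The receptors are known chiefly from neutrophils. CXCR1 was at 7.76 and 7.79 in untreated and 7.71 and 7.87 in LPS-treated cells, and 66.1% of probe sets were dimmer. The LPS arrays enclosed the untreated arrays, and the ratio was 1.01 (interval 0.826 to 1.24). CXCR2 was at 4.90 and 4.68 in untreated and 4.69 and 4.94 in LPS-treated cells, with 17.9% of probe sets dimmer. Its groups overlapped too, at a ratio of 1.02 (interval 0.821 to 1.26). Each receptor had 1 probe set, so neither level had a second measurement. Of 16 neutrophil markers chosen for comparison and read on their brightest probe sets, 1 lay at or above the median of all probe sets. On that reading 59.2% of all genes did. The 1 was FPR1, the formyl peptide receptor, at 6.89 over the 4 arrays. The granule protein gene MPO was at 5.57 to 5.78 and the Fc receptor gene FCGR3B at 5.00 to 5.17. The mean level of that list was 5.40 to 5.42 in untreated and 5.42 to 5.48 in LPS arrays.

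**Figure D4:**
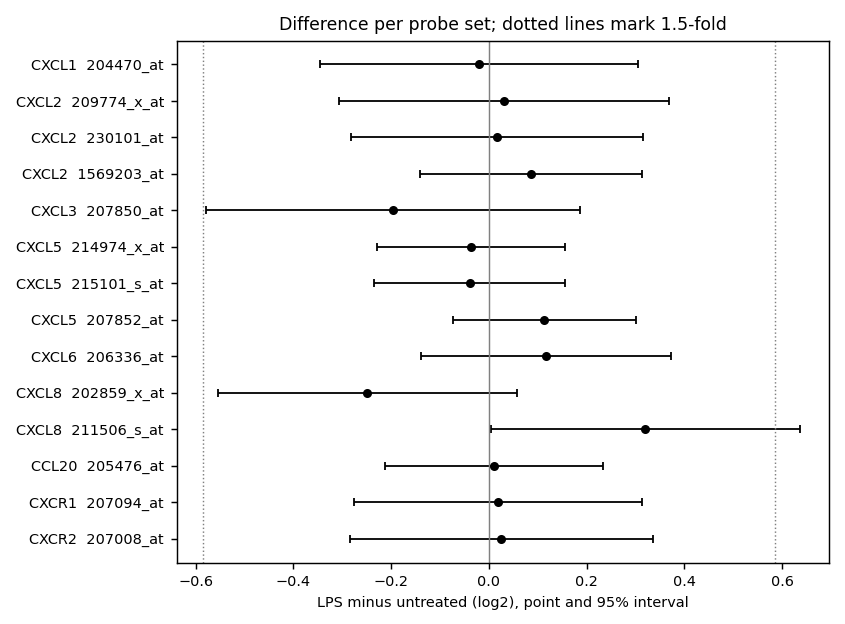
LPS minus untreated on the log2 scale for each of the 14 probe sets (horizontal axis), with 95% intervals from limma and dotted lines at 1.5-fold. The interval excludes 0 only for CXCL8 on 211506_s_at, which also reaches past 1.5-fold at 1.55.

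For 13 of the 14 probe sets the 95% interval lay within 1.5-fold in both directions, the exception being CXCL8 on 211506_s_at. Only 5 of the 14 lay at or above the median of all probe sets, and the interval of a dim probe set may not limit a change of the transcript. These intervals are not adjusted for the number of probe sets. The number of arrays limits their precision: the median 95% interval of all probe sets was 0.288 wide on either side of its estimate (log2).

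LPS replicate 2 held the lowest or highest value of the 4 arrays in 10 of the 14 probe sets, and in 59.2% of all probe sets. Its value was the lowest for the brightest probe sets of CXCL1, CXCL2, CXCL3 and CXCL8. For CXCL6, CCL20, CXCR1, CXCR2, the dimmer CXCL8 probe set and 230101_at it was the highest. After quantile normalization it was extreme in 8 of the 14 and 58.3% of all. Over all probe sets dimmer than the median, this array lay 0.047 above the 4-array mean, and the other 3 arrays lay between -0.028 and 0.0004 of it. Its part in the members' differences was not tested beyond leaving it out.

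**Figure D5:**
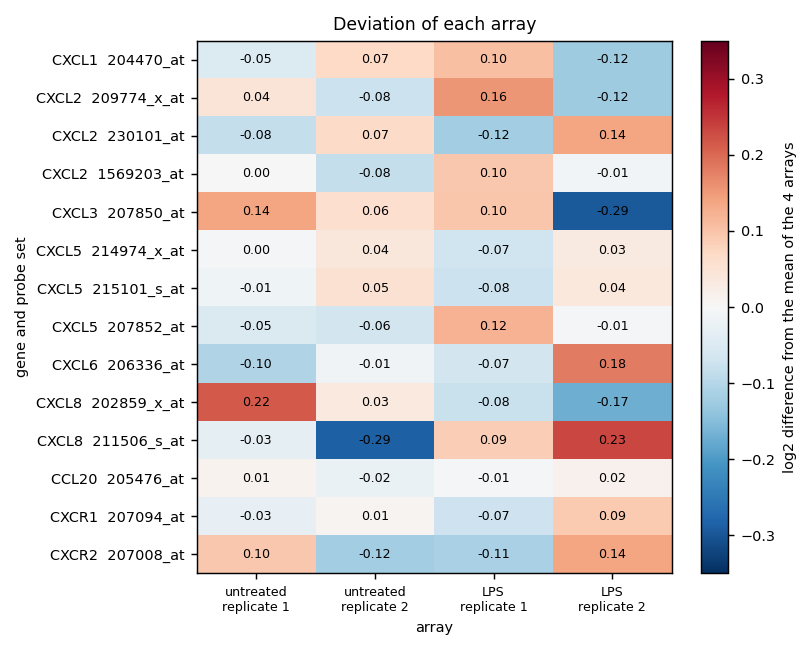
Difference of each array (columns) from the mean of the 4 arrays, on the log2 scale, for each probe set (rows), with red above and blue below the mean. LPS replicate 2 is lowest for CXCL3 at -0.29 and highest for CXCL8 on 211506_s_at at 0.23.

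The other chemokine genes were read on the brightest probe set of each gene, in the same fit. Over all 19775 genes 2.23% had an unadjusted p under 0.05, and the LPS arrays lay above without overlap in 17.9% and below in 11.7%. Read this way, 59.2% of all genes lay at or above the median of all probe sets, which is the share to set beside the counts of bright genes in each list. In the lists that follow, 0 genes passed after adjustment (limma), and every one named had an adjusted p of 1.

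Of the 11 other CXC ligands, 1 had an unadjusted p under 0.05. This was CXCL11, an interferon-inducible ligand of CXCR3, at 6.09 and 6.11 in untreated and 5.67 and 5.87 in LPS-treated cells. Its difference was -0.33 ± 0.12 (SE; limma, unadjusted p = 0.0309), and its other probe set differed by -0.53 (unadjusted p = 0.014), so both CXCL11 probe sets were lower. The platelet chemokine genes inside the cluster, PPBP (difference 0.011), PF4 (0.0002) and PF4V1 (0.058), had overlapping arrays. CXCL16, a membrane-bound ligand of CXCR6, was brighter than 86.0% of probe sets and differed by -0.029.

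The CC, C and CX3C ligands other than CCL20 had 21 of 26 members measured, 3 of them at or above the median. Their median difference was 0.094, and 7 had both LPS arrays above, 0 below. CCL8, a monocyte-attracting chemokine, had the highest statistic at 3.82 and 3.88 against 4.06 and 4.10 (difference 0.24 ± 0.08, SE; limma, unadjusted p = 0.0189), with 4.93% of probe sets dimmer. CCL5 had the lowest, at -0.12 on its brightest probe set and 0.076 and -0.16 on the others. Of 18 measured chemokine receptors, 2 lay at or above the median, 7 had both LPS arrays above and 0 below, and the median difference was 0.081. ACKR4, a scavenging receptor, was at 4.07 and 4.09 against 4.32 and 4.36 (difference 0.26 ± 0.08, SE; limma, unadjusted p = 0.0149). CCR1 was at the other end at -0.10. In both genes with the highest statistics, both LPS arrays were above both untreated arrays. Both genes were dim, in the range in which LPS replicate 2 lay 0.047 above the 4-array mean. The part of that offset in their values was not tested.

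Genes that act below CXCR1 and CXCR2 were mostly bright, 15 of 18 measured at or above the median, and 0 had an unadjusted p under 0.05. Their median difference was 0.013. RGS16, which ends G protein signals, was at 8.21 and 8.34 in untreated and 8.72 and 8.40 in LPS-treated cells, a difference of 0.28 ± 0.15 (SE), and its other probe sets differed by 0.16 and -0.027. GNAI3, an inhibitory G protein subunit gene, differed by -0.080.

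Genes of the pathways that switch these chemokines on had 1 of 18 at an unadjusted p under 0.05, with a median difference of 0.060. TNFRSF1B, a receptor of tumour necrosis factor, was at 7.21 and 7.20 against 7.46 and 7.62 (difference 0.33 ± 0.12, SE; limma, unadjusted p = 0.0319). CHUK, a kinase of the IKK complex, was at 10.65 and 10.52 against 10.43 and 10.33 (difference -0.20 ± 0.10, SE; limma, unadjusted p = 0.0949). Of the regulators of AU-rich transcript decay, 10 of 10 measured lay above the median and 0 had an unadjusted p under 0.05. The decay factor gene ZFP36L2 had a difference of -0.18 ± 0.10 (SE) where it was brightest, and its dimmer probe sets gave 0.025 to 0.10. RC3H1, encoding an RNA-binding decay factor, gave 0.10 on its brightest probe set and -0.28 and -0.15 on the dimmer ones.

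Marker genes of the labelled and of other cell types were read in the same way, as a description without detection calls, since brightness also depends on the probes. All 11 measured epithelial markers lay above the median, from CDH1 at 8.26 to KRT18 at 14.40. Of the 10 measured monocyte and lymphocyte markers 2 did, led by LYZ at 9.90, and of the 10 fibroblast and endothelial markers 4 did, led by COL1A1 at 8.63. Mean levels of the epithelial list were 11.67 to 11.79 in untreated and 11.72 to 11.78 in LPS arrays. For monocyte and lymphocyte markers they were 6.17 on both untreated arrays and 6.06 to 6.18 on the LPS arrays. In that list both LPS arrays lay below in 5 of 10 (11.7% of all genes) and above in 2 (17.9% of all genes). The median difference was -0.11. For fibroblast and endothelial markers the mean levels were 6.16 to 6.18 in untreated and 6.17 to 6.28 in LPS arrays. There both LPS arrays lay above in 5 of 10 and below in 0, beside the same 17.9% and 11.7% of all genes. The median difference was 0.066. Across the 4 marker lists 0 genes had an unadjusted p under 0.05 (limma), and the part of these markers in the chemokine values was not tested.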

How the data were processed

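Deposited log2 expression values of 54675 probe sets on 4 arrays were used without further normalization. The authors' processing is known only from the submitters' processing notes, which name MAS5 and RMA without roles or versions. They look like RMA output, and RMA can understate folds where the signal is weak. Probe sets were named through the platform annotation, with gene numbers checked against RefSeq. The 62 controls and probe sets with several (1801) or no (11777) symbols were left out, which gave 41091 probe sets. Each probe set was its own two-sided test of LPS against untreated arrays in limma (version 3.58.1; R 4.3.3), without covariates and with eBayes using a trend on mean intensity. Benjamini-Hochberg adjustment ran over all 41091, at a threshold of 0.05. Intervals are 95% intervals of that fit. A gene's brightest probe set has the highest mean over the 4 arrays.

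The 9 genes, the gene lists and the tests were chosen with earlier results of these data known. Of each list the members with the highest and lowest moderated statistic, up to 4 with an unadjusted p under 0.05, and CCR6, PPBP, PF4 and CXCL16 were named; the cell marker genes, among them FPR1, MPO and FCGR3B, were named as examples. List genes without a probe set of their own symbol alone were not analysed here. The labels do not say which arrays came from which experiment, so p-values rest on the spread between these arrays. In that fit the variance of each probe set is moderated by those of all probe sets tested. Figures were drawn with matplotlib 3.10.9.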

Additional observations from a re-analysis of the deposited data

How the results depend on the processing

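The number of probe sets past the adjusted threshold was 0 in both directions under each of 12 alternatives (quantile normalization, a filter at median expression, all probe sets apart from controls, 1 probe set or the mean per gene, leaving out probe sets ending in _x_at or _s_at, eBayes without a trend, the replicate block, and each array left out). The 1 member probe set at an unadjusted p under 0.05 became 0 with the filter, with all probe sets tested, with 1 probe set per gene, with the mean per gene and without _x_at or _s_at probe sets, and 0 to 2 when 1 array was left out, where the lone array of a group is assumed to vary like the other group. The filter and the gene-wise settings drop or average the probe set concerned. With the replicate block the count was 1, but of the other CXCL8 probe set, 202859_x_at (-0.25, limma, unadjusted p = 0.0394), while 211506_s_at had 0.054. Same-numbered arrays deviated together (r = 0.54 across probe sets, which are not independent), and the labels do not say that a number marks an experiment. Under the block 7.32% of all probe sets had an unadjusted p under 0.05, and no adjusted call was made.

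The median difference over the members ran from -0.020 to 0.028 over all settings, and from -0.0042 to 0.028 with 1 array left out. Of 103 alternative values of single genes on their brightest probe set, 88 kept their direction and 15 turned. The lowest adjusted p (limma) was 0.655. Many of the 88 could not turn, so that count does not measure stability. The filter, all probe sets, 1 probe set per gene, no trend and the block leave the difference of a brightest probe set unchanged. For genes with 1 probe set, so do the mean per gene and leaving out _x_at and _s_at. Apart from arrays left out, CXCL5 turned to 0.012 with the mean per gene and 0.11 without _x_at or _s_at probe sets, CXCL8 to 0.036 with the mean per gene, and CCL20 to -0.010 with quantile normalization. With 1 array left out the differences ran from -0.13 to 0.094 for CXCL1, -0.11 to 0.17 for CXCL2, -0.39 to -0.0005 for CXCL3, -0.088 to 0.014 for CXCL5, -0.0068 to 0.24 for CXCL6, -0.34 to -0.16 for CXCL8, -0.0083 to 0.028 for CCL20, -0.063 to 0.10 for CXCR1 and -0.10 to 0.15 for CXCR2. The turns by averaging or dropping probe sets come from probe sets of opposite sign; the cause of the others was not tested. The filter left no probe set of CXCL5, CXCL6, CCL20 or CXCR2, and CXCL8 had none without _x_at and _s_at.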
